A study of Mus musculus with 12 samples.

Results

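Sv2a, Sv2b, Sv2c, Syn1, Syn2, Syn3, Syp, Syt1, Syt2 and Syt7 encode proteins of the synaptic vesicle or of its release. The synaptic vesicle is the small membrane sac that stores neurotransmitter in the nerve terminal. They were chosen by gene symbol, with no measured value in the rule but with earlier results of these data known. All 10 are in the table of 15759 entries and among the 15369 genes that were tested. Levels of poly-adenylated RNA were compared between knock-in mice modeling spinocerebellar ataxia type 1 (SCA1 KI) and wild-type (WT) littermates in whole cortex and whole cerebellum. There were 3 libraries in each of 4 groups, WT cortex (libraries B, C and D), SCA1 KI cortex (A, E and F), WT cerebellum (2, 4 and 6) and SCA1 KI cerebellum (1, 3 and 5). In SCA1 KI mice (Atxn1 154Q/2Q), 1 Atxn1 allele was expanded to 154 glutamine codons while its partner has 2, and the gene is expressed from its own locus in every cell type that uses it. WT mice have no knock-in allele. All mice were C57BL/6J, untreated and 12 weeks old. The labels list males, whereas the methods of the study describe males and females combined. Nothing ties a cortex library to a cerebellum library of the same mouse.

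SCA1 is a neurodegenerative disease caused by an expanded run of glutamines in ataxin-1, which has long been studied through the Purkinje cells of the cerebellum. When an action potential reaches a nerve terminal, calcium enters, synaptotagmins on the vesicle membrane bind it, and the vesicle fuses and releases its transmitter. The SV2 proteins are glycoproteins with the fold of membrane transporters that are found on nearly all vesicles, synapsins tether vesicles into a reserve pool, and synaptophysin is an abundant membrane protein that helps retrieve the vesicle SNARE synaptobrevin.

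Each library held between 29520855 and 51311309 reads on genes, and the lowest value of any of the 10 genes was 221 normalized counts (Sv2c). A normalized count is the number of reads on a gene divided by the size factor of its library. Markers of cortical excitatory neurons and of cerebellar granule cells followed the labels, with Slc17a7 on both lists. Not every list did so. The sum of 10 forebrain inhibitory neuron markers was 28808 to 41180 in cortex libraries and 50978 to 60796 in cerebellum libraries. The sum of 12 cortical excitatory neuron markers was 111603 to 192957 normalized counts in cortex libraries and 18846 to 23061 in cerebellum libraries. That of 10 markers of cerebellar granule cells was 157060 to 231278 in cerebellum libraries and 45751 to 66643 in cortex libraries. Atxn1, the knock-in gene, did not differ beyond the threshold in either region (log2 fold change of SCA1 KI against WT, LFC, −0.31, adjusted p = 0.132 in the cortex and 0.08, adjusted p = 0.837 in the cerebellum, limma with Benjamini-Hochberg adjustment), and gene-level counts do not tell its alleles apart. WT cerebellum library 2 stood apart within its group, with a summed level of 10 granule cell markers of 157060 against 213642 and 218998 in libraries 6 and 4. SCA1 KI cortex library A also stood apart. The chi-square of reads per gene was 33.5 and 36.6 for A against E and F, and 10.5 between E and F. It was 27.2 and 21.5 for library 2 against 4 and 6, and 9.7 between 4 and 6.

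Of the 10 genes, 4 were lower and 0 higher in SCA1 KI cortex. These were Sv2b and the 3 synaptotagmins Syt1, Syt2 and Syt7, with SCA1 KI levels between 52.8% and 78.2% of WT. To pass, a gene needed an adjusted p (Benjamini-Hochberg over all tested genes) below 0.05 and an LFC beyond 0.25 in either direction. Over all tested genes 15.6% passed, 4.82% being higher and 10.8% lower. The median LFC was −0.30 over the 10 genes and −0.0028 over all genes. Libraries of the genotypes did not overlap for 5 of the 10 genes, against 30.9% of all genes. In bulk tissue, fewer cells of a type and less RNA per cell cannot be told apart. The libraries are separate samples by their labels. The tests set each difference against the spread between libraries within groups, estimated over all 4 groups and moderated across genes.

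In SCA1 KI cerebellum, 2 of the 10 genes passed, with Sv2b higher and Syt7 lower, beside 5.36% of all tested genes in either direction, 0.917% higher and 4.44% lower. The median LFC was 0.068 over the 10 genes and −0.0049 over all genes. Libraries did not overlap between the genotypes for 5 of the 10, Sv2b, Sv2c, Syp and Syt1 being higher and Syt7 lower in SCA1 KI, against 31.8% of all genes. Syt7 thus passed on the lower side in cortex and cerebellum alike, and Sv2b passed in opposite directions. The LFCs of the regions differed for 4 of the 10 genes, Sv2b, Syt2, Syt1 and Syn1, all 4 lower in the cortex than in the cerebellum, beside 8.15% of all tested genes in either direction, 3.26% higher and 4.89% lower (limma interaction term, adjusted p under 0.05). The cerebellum libraries had been made for an earlier study, so a difference between the regions cannot be told apart from one between the studies. The plot of normalized counts by library shows all 10 genes, and the plot of LFCs gives both regions side by side.

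**Figure D1:**
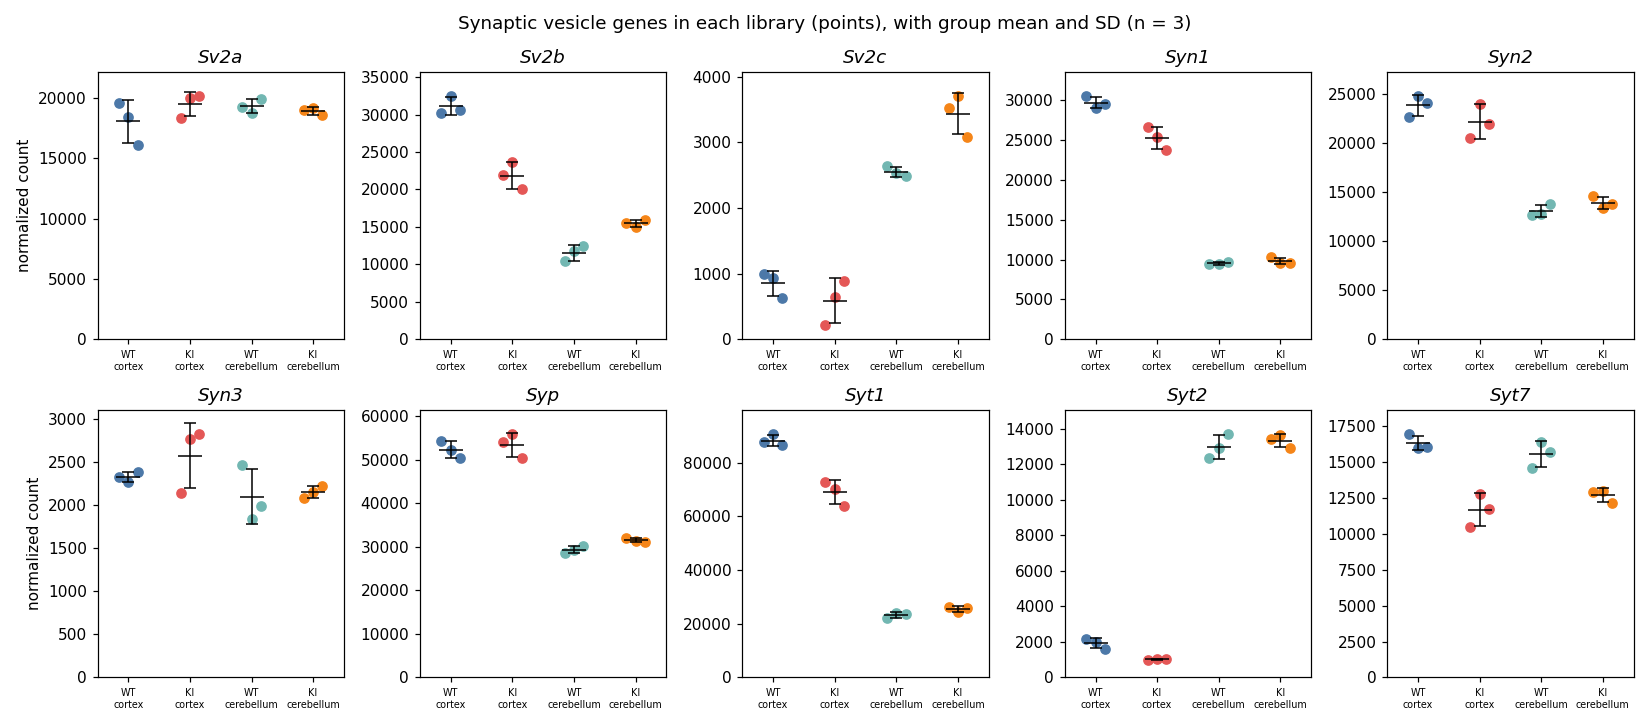
Normalized counts (vertical axis, from 0 and scaled for each gene) of the 10 genes in each of the 12 libraries, with points for libraries and black bars for the mean and SD of each group (n = 3). Sv2b points lie lower in SCA1 KI cortex than in WT cortex and higher in SCA1 KI cerebellum than in WT cerebellum, while Syt7 points lie lower in SCA1 KI in cortex and in cerebellum.

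**Figure D2:**
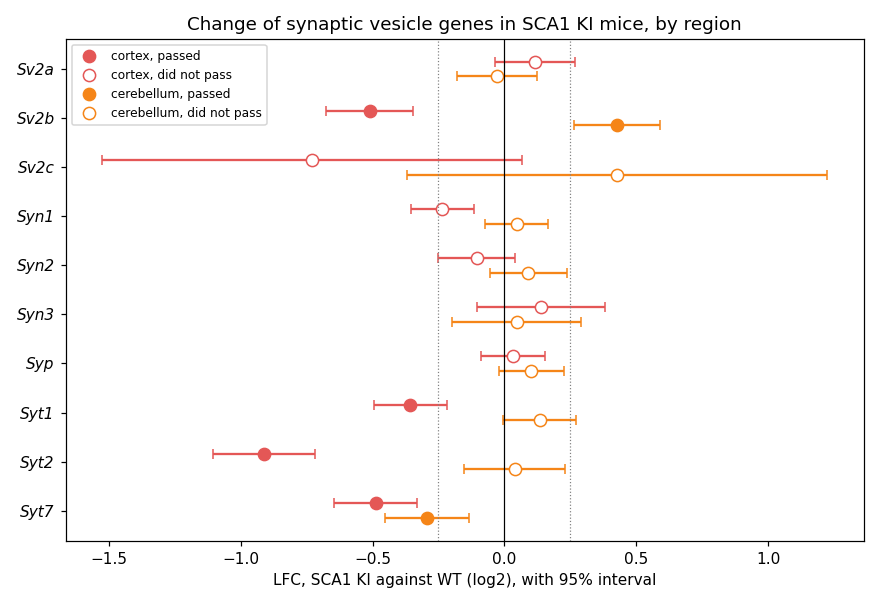
LFC of SCA1 KI against WT on the log2 scale (horizontal axis) for each gene in cortex and cerebellum, with 95% intervals from limma, filled points for genes that passed and dotted lines at −0.25 and 0.25. In the cortex Sv2b, Syt1, Syt2 and Syt7 are filled on the lower side, and in the cerebellum Sv2b is filled on the higher side and Syt7 on the lower side.

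Sv2b encodes the SV2 form that is most plentiful in forebrain excitatory neurons. The gene is on the minus strand of chromosome 7 (GRCm38, 75114894 to 75309262). Its normalized counts were 30225, 32449 and 30568 in WT cortex libraries B, C and D and 21885, 23658 and 20017 in SCA1 KI cortex libraries A, E and F. The SCA1 KI libraries all lay under the WT libraries, with a gap wider than the range of either group. The LFC was −0.51 (SE 0.0755, adjusted p = 5.61e-04, limma), or 70.3% of the WT mean.

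In the cerebellum the order of the genotypes for Sv2b was the opposite. WT libraries 2, 4 and 6 held 10419, 11730 and 12431 normalized counts, and SCA1 KI libraries 1, 3 and 5 held 15484, 14978 and 15910. The groups did not overlap, and the SCA1 KI mean was 134% of the WT mean (LFC 0.43, SE 0.0755, adjusted p = 0.00523, limma). Without WT library 2, which had the lowest Sv2b count, the LFC was 0.36 (adjusted p = 0.0180, limma). The LFC of Sv2b in the cortex was lower than that in the cerebellum by a difference of −0.94 (SE 0.107, adjusted p = 4.29e-04, limma interaction term).

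Sv2a encodes the SV2 form found throughout the brain, the binding site of the antiepileptic levetiracetam, and lies on chromosome 3 from 96181151 to 96195521 (plus strand). Its counts were 19636, 18456 and 16134 in WT cortex and 18389, 19998 and 20173 in SCA1 KI cortex, so the groups overlapped. The LFC was 0.11 in the cortex (95% interval −0.037 to 0.27, adjusted p = 0.301, limma). In the cerebellum all libraries of both genotypes lay between 18599 and 19968, with an LFC of −0.029 (95% interval −0.18 to 0.12, adjusted p = 0.895, limma).

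Sv2c encodes the SV2 form of basal ganglia and some other evolutionarily old brain regions, and lies on chromosome 13 from 95954594 to 96132577 (minus strand). Cortex libraries spread widely, with 997, 927 and 633 normalized counts in WT and 221, 648 and 893 in SCA1 KI. SCA1 KI library A was far under the others of its group, and the groups overlapped. The LFC of −0.73 did not pass (SE 0.367, adjusted p = 0.203, limma). It was −0.14 without library A (adjusted p = 0.669) and −1.14 without library F (adjusted p = 0.0370), both from limma. Library A was also lowest, and WT library B highest, in the summed level of 9 striatal markers, which was 8743 in A, 13323 to 27561 in WT and 13074 and 15869 in E and F. Whether adjoining striatum entered some cortex samples was not tested.

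Cerebellar Sv2c counts were 2632, 2526 and 2488 in WT and 3523, 3702 and 3086 in SCA1 KI. The groups did not overlap, and the SCA1 KI mean was 135% of WT. The LFC of 0.43 did not pass in the fit of both regions (SE 0.367, adjusted p = 0.631, limma), where the wide spread in the cortex sets the error. It passed when the cerebellum was fitted on its own (adjusted p = 0.0154, limma).

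Among the synapsins, phosphoproteins that bind vesicles to one another and to actin, Syn1 (chromosome X from 20860511 to 20921004, minus strand) was the only one whose cortex libraries did not overlap. Its counts were 30534, 29072 and 29577 in WT cortex and 26616, 25389 and 23784 in SCA1 KI cortex. The LFC of −0.24 had an adjusted p of 0.0105 (SE 0.0553, limma) but was within the limit of 0.25, so Syn1 was not counted among the genes that passed. Cerebellar levels overlapped, at 9418, 9466 and 9706 in WT and 10286, 9625 and 9618 in SCA1 KI, with an LFC of 0.046 (95% interval −0.074 to 0.17, adjusted p = 0.758, limma). The difference between the regions was −0.28 (SE 0.0781, adjusted p = 0.0436, limma) and was lost in 11 of 12 fits that left out 1 library (adjusted p up to 0.135).

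Syn2 (chromosome 6 from 115134902 to 115282006, plus strand) ranged from 22596 to 24755 in WT cortex and from 20521 to 24002 in SCA1 KI cortex. The groups overlapped, with an LFC of −0.11 (95% interval −0.25 to 0.041, adjusted p = 0.321, limma). In the cerebellum Syn2 was at 12622 to 13746 in WT and 13355 to 14542 in SCA1 KI, and the LFC was 0.091 (adjusted p = 0.567, limma). Syn3 (chromosome 10 from 86055125 to 86498896, minus strand), a synapsin best known from developing neurons, was at 2261 to 2379 in WT cortex and 2141 to 2818 in SCA1 KI cortex. Neither region gave a difference in Syn3 beyond the spread (LFC 0.14, adjusted p = 0.449 in the cortex and 0.046, adjusted p = 0.896 in the cerebellum, limma).

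Syp, which encodes synaptophysin (chromosome X from 7638471 to 7653256, plus strand), overlapped between the genotypes in the cortex. Its values there were 54236, 52139 and 50385 for WT and 54113, 55797 and 50453 for SCA1 KI. The LFC was 0.032 (95% interval −0.090 to 0.15, adjusted p = 0.745, limma). In the cerebellum the SCA1 KI libraries (32026, 31264 and 31159) all lay above the WT libraries (28669, 29192 and 30135). This LFC of 0.10 did not pass (95% interval −0.020 to 0.22, adjusted p = 0.394, limma).

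Syt1 encodes the calcium sensor of fast, synchronous release in forebrain neurons and lies on chromosome 10 from 108497650 to 109010982 (minus strand). WT cortex counts were 87560, 90543 and 86451, and those in SCA1 KI cortex were 72672, 70356 and 63909. No SCA1 KI library reached the lowest WT library, and the LFC was −0.36 (SE 0.0639, adjusted p = 0.00213, limma), 78.2% of WT. In the cerebellum Syt1 was at 22002, 24053 and 23693 in WT and 26326, 24438 and 25699 in SCA1 KI. The groups did not overlap by a narrow margin, and the LFC of 0.13 did not pass (95% interval −0.0054 to 0.27, adjusted p = 0.312, limma). The LFCs of the regions differed by −0.49 (SE 0.0903, adjusted p = 0.00561, limma).

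Syt2 encodes the fast calcium sensor of the brainstem, spinal cord and cerebellum and of parvalbumin interneurons, and lies on chromosome 1 from 134646677 to 134762593 (plus strand). It had the lowest LFC of the 4 genes that passed in the cortex. The WT cortex libraries held 2158, 2023 and 1622 normalized counts and the SCA1 KI cortex libraries 978, 1058 and 1029. The SCA1 KI libraries were close together, all under the lowest WT library, at 52.8% of the WT mean (LFC −0.91, SE 0.0886, adjusted p = 3.05e-05, limma). Pvalb, the parvalbumin gene of the interneurons in which cortical Syt2 is known to be expressed, was also lower in SCA1 KI cortex (LFC −0.66, adjusted p = 0.0111, limma). It was singled out after its value was seen from 10 markers of forebrain inhibitory neurons, of which 2 were lower and 0 higher in limma (4 at an unadjusted p under 0.05, 3 lower in edgeR and in DESeq2). Their summed level overlapped, at 38413 to 41180 in WT and 28808 to 39648 in SCA1 KI. The part of these cells in the fall of Syt2 was not tested.

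The cerebellum, where Syt2 was far more abundant, showed no such difference. Counts were 12354, 12937 and 13685 in WT and 13441, 13662 and 12909 in SCA1 KI, and the groups overlapped. The LFC was 0.039 with a 95% interval from −0.15 to 0.23 (adjusted p = 0.889, limma), and the difference between the regions was −0.95 (SE 0.125, adjusted p = 9.22e-04, limma).

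Syt7 encodes a slow, high-affinity calcium sensor that acts in asynchronous release and in facilitation, and lies on chromosome 19 from 10389090 to 10453180 (plus strand). Its cortex counts were 16922, 15991 and 16066 in WT and 10478, 12792 and 11758 in SCA1 KI. All SCA1 KI libraries were lower, at 71.5% of the WT mean (LFC −0.49, SE 0.0731, adjusted p = 6.24e-04, limma). In the cerebellum WT libraries held 14564, 16386 and 15679 and SCA1 KI libraries 12927, 13000 and 12116. These groups did not overlap either, and the SCA1 KI mean was 81.6% of WT (LFC −0.29, SE 0.0731, adjusted p = 0.0349, limma). The cerebellar call was lost in 6 of 12 fits that left out 1 library, with adjusted p up to 0.146, and the LFC stayed between −0.34 and −0.25. The regions did not differ in the LFC of Syt7 at the threshold (difference −0.20, 95% interval −0.42 to 0.029, adjusted p = 0.309, limma).

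Some lists of markers of cell types and of adjoining tissue moved with genotype in both regions, and others did not. In the cortex, the summed level of 12 markers of excitatory neurons was 186380 to 192957 in WT and 111603 to 132776 in SCA1 KI (0 of 12 higher, with 4 lower in limma, 6 in edgeR and 5 in DESeq2), with none of them at 0. That of 8 general neuronal genes was 262729 to 282710 in WT and 189512 to 203944 in SCA1 KI (4 of 8 lower), and that of 8 astrocyte genes was 261962 to 271723 in WT and 127148 to 192476 in SCA1 KI (5 of 8 lower in limma and in edgeR, 6 in DESeq2). Markers of midbrain and brainstem summed to 466 to 580 in WT cortex and 1069 to 2018 in SCA1 KI cortex (3 of 13 higher in limma and in edgeR, 7 in DESeq2). Some lists named for cerebellar cells were lower in SCA1 KI cortex as well. Purkinje cell markers summed to 46478 to 49440 in WT and 26560 to 31274 in SCA1 KI (1 of 8 higher, 4 lower). Molecular layer and Golgi interneuron markers summed to 25454 to 28092 in WT and 16893 to 22287 in SCA1 KI (5 of 8 lower in limma). Of the oligodendrocyte, microglia and endothelium markers, 0 passed in the cortex. The part of cell or tissue composition in the lower levels of Sv2b, Syt1, Syt2, Syt7 and Syn1 was not tested.

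In the cerebellum, thalamic markers summed to 10126 to 15414 in WT and 5990 to 6263 in SCA1 KI (5 of 9 lower), and markers of midbrain and brainstem to 1852 to 2694 in WT and 971 to 1348 in SCA1 KI (6 of 13 lower in limma, 7 in edgeR and 5 in DESeq2). The sum of the 12 cortical excitatory markers overlapped, at 18846 to 22651 in WT and 21119 to 23061 in SCA1 KI (1 of 12 higher, 3 lower). Summed granule cell markers were 157060 to 218998 in WT and 221886 to 231278 in SCA1 KI (0 of 10 passed in limma, 0 in edgeR and 1 in DESeq2, with 2 at an unadjusted p under 0.05 in limma), oligodendrocyte markers 189549 to 282597 in WT and 160708 to 161645 in SCA1 KI (2 of 8 lower in limma and in edgeR, 5 in DESeq2), and Purkinje cell markers 337195 to 420283 in WT and 297543 to 335100 in SCA1 KI (1 of 8 lower in limma, 2 in edgeR and 3 in DESeq2). Astrocyte markers summed to 154413 to 167919 in WT and 136452 to 141208 in SCA1 KI (1 of 8 lower in limma and in edgeR, 2 in DESeq2). Markers of molecular layer and Golgi interneurons summed to 59055 to 62161 in WT and 52135 to 54164 in SCA1 KI (0 of 8 passed). The part of these shifts in the higher Sv2b and lower Syt7 of the SCA1 KI cerebellum was not tested.

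Between the regions of WT mice, 7 of the 10 genes differed, 5 being higher and 2 lower in the cortex, beside 61.7% of all tested genes (31.0% higher and 30.7% lower). Libraries of the regions did not overlap for 7 of the 10 genes, against 69.9% of all genes. Higher in the cortex were Syt1 (LFC of WT cortex against WT cerebellum 1.92), Syn1 (1.64), Sv2b (1.43), Syn2 (0.87) and Syp (0.83), and lower were Syt2 (−2.76) and Sv2c (−1.61). All 7 had limma adjusted p of 0.00176 or less. Sv2a (−0.10, adjusted p = 0.215), Syn3 (0.16, adjusted p = 0.230) and Syt7 (0.072, adjusted p = 0.400) did not pass in limma. The cerebellum libraries had been made for an earlier study, so region cannot be told apart from any difference between the runs, and the size factors assume that most genes do not differ between the tissues.

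Levels of different genes were compared as normalized counts per kb of merged exon. In WT cortex the order by mean level per kb was Syt1 (10576), Syp (10028), Syn1 (9011), Sv2a (3899), Sv2b (3708), Syn2 (3388), Syt7 (2181), Syt2 (253), Syn3 (189) and Sv2c (87.9). Libraries overlapped between the neighbours Syt1 and Syp and between Sv2a and Sv2b, and no other neighbours overlapped. In SCA1 KI cortex Syp was at 10258 per kb, Syt1 at 8273, Syn2 at 3152 and Sv2b at 2607. In WT cerebellum Syp led with 5629 per kb, followed by Sv2a (4172), Syn1 (2889), Syt1 (2788), Syt7 (2076), Syn2 (1855), Syt2 (1701), Sv2b (1375), Sv2c (263) and Syn3 (171). There Syn1 overlapped Syt1 and Syt7 overlapped Syn2. In SCA1 KI cerebellum Sv2b (1844 per kb), Syt2 (1746 per kb) and Syt7 (1694 per kb) formed a group in which neighbours overlapped. The order depends on the length used, since merged exons and the longest transcript differ unequally between genes (5211 and 2843 bases for Syp, 4636 and 4334 for Sv2a).

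These levels give the make-up of each family, as the share of 1 gene in the summed level per kb. The share of Sv2b among the Sv2 genes was 48.3% ± 2.68 (SD, n = 3) for WT cortex and 37.9% ± 2.56 (SD, n = 3) for SCA1 KI cortex. In the cerebellum it made up 23.6% ± 1.49 (SD, n = 3) in WT and 29.3% ± 1.09 (SD, n = 3) in SCA1 KI. In neither region did Sv2b shares overlap between WT and SCA1 KI. The shares of Sv2b thus lay closer to each other between the regions in SCA1 KI mice than in WT mice. The share of Sv2a was 50.6% and 61.2% in WT and SCA1 KI cortex and 71.8% and 65.0% in WT and SCA1 KI cerebellum. Its opposite direction follows from that of Sv2b, because the shares sum to the whole and Sv2c is small. The level of Sv2a itself did not pass in either region. Sv2c stayed the smallest of the family, at 1.13% and 0.873% in WT and SCA1 KI cortex and 4.53% and 5.63% in WT and SCA1 KI cerebellum.

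Syn1 was the main synapsin with 71.6% of the family in WT cortex, 69.5% in SCA1 KI cortex, 58.8% in WT cerebellum and 58.1% in SCA1 KI cerebellum. Among the 3 synaptotagmins, Syt1 made up 81.3% in WT cortex and 83.0% in SCA1 KI cortex, while cerebellar shares of Syt1 were 42.5% ± 0.207 (SD, n = 3) for WT and 47.1% ± 1.47 (SD, n = 3) for SCA1 KI, without overlap. Syt7 made up 31.6% in WT cerebellum and 26.1% in SCA1 KI cerebellum, and Syt2 25.9% and 26.9%. With the length of the longest transcript in place of merged exons, Sv2b (56.9%) instead of Sv2a (42.1%) was the larger share in WT cortex, and Syn2 instead of Syn1 in the cerebellum of both genotypes (50.1% and 43.3% in WT, 50.9% and 42.7% in SCA1 KI). Shares are descriptions with no test.

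**Figure D3:**
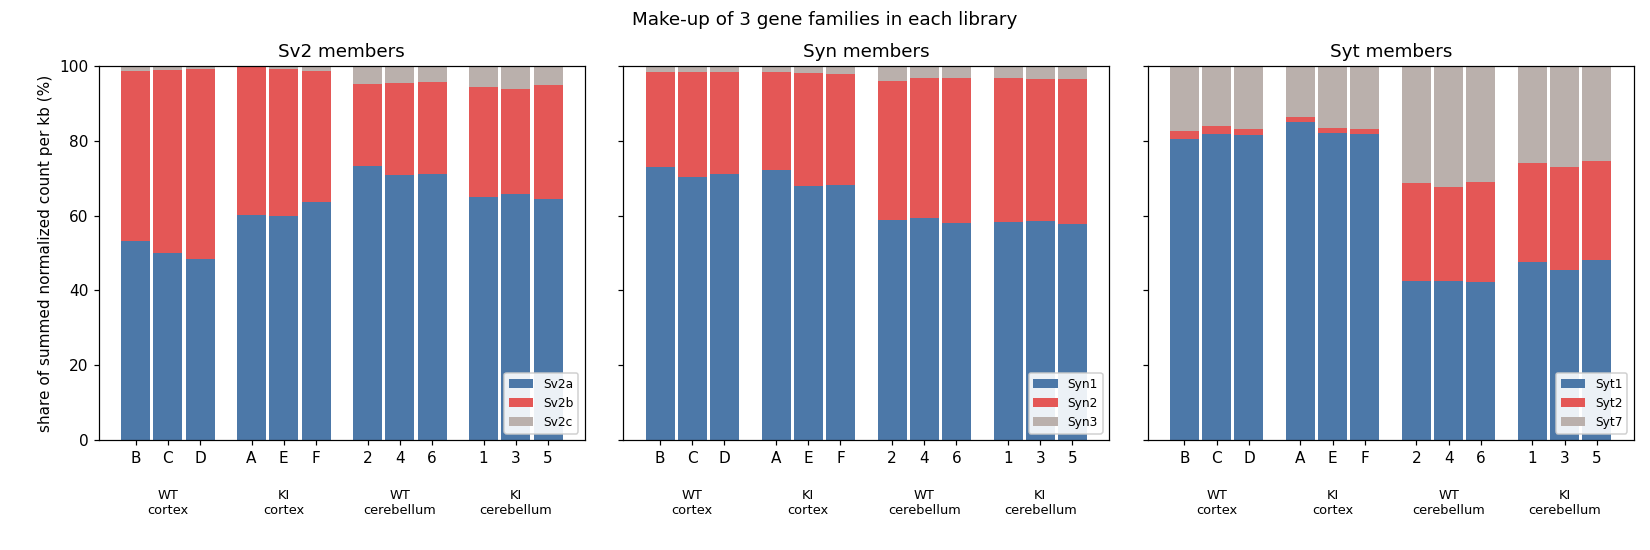
Share in percent (vertical axis) of each gene in the summed normalized count per kb of merged exon of its family, as stacked bars for each of the 12 libraries, grouped by region and genotype. In the Sv2 panel the Sv2b segment is narrower in SCA1 KI than in WT cortex (37.9% against 48.3%) and wider in SCA1 KI than in WT cerebellum (29.3% against 23.6%).

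The promoters of the genes that were lower together in the cortex, and of Syn1, are shown because these genes moved together in the cortex. RefSeq promoter sequences on GRCm38.p6 matched 8 of the 10 genes, and Syn3 and Syt7 had no entry. Each run holds the 250 bases before the RefSeq start nearest the annotated gene start, 5′ to 3′ on the strand of the gene, and capitals mark the cAMP response element TGACGTCA.
Sv2b, chr7:75309263-75309512, minus strand: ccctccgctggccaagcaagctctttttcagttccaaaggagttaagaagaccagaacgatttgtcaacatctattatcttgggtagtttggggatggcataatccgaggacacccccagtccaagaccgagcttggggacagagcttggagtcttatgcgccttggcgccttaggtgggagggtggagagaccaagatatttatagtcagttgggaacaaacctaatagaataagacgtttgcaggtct
Syt1, chr10:109010976-109011225, minus strand: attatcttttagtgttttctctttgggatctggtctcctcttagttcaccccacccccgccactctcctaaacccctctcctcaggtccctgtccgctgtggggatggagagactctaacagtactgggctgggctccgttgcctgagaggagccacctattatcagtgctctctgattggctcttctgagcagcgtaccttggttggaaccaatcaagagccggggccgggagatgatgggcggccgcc
Syt2, chr1:134646362-134646611, plus strand: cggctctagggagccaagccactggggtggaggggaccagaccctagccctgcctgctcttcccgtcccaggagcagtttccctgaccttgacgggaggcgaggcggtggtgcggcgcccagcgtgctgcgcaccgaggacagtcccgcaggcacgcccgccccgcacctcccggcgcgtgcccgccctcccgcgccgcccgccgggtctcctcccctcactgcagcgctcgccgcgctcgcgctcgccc
Syn1, chrX:20920919-20921168, minus strand: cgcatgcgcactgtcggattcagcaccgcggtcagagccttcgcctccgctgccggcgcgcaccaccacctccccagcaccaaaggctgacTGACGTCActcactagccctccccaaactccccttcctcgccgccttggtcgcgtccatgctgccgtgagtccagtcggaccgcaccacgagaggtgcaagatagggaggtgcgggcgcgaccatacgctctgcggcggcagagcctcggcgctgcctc

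The Sv2b window had 48.8% GC and 7 CpG dinucleotides, near the medians of 52.4% and 6 over all 32851 RefSeq promoters of that length, whereas Syt2 had 76.0% GC and 30 CpG, Syn1 68.0% and 27, and Syt1 56.4% and 8. Both strands of the full entries, from 250 bases before to 50 after the start, were searched for 7 motifs. Some motifs can overlap one another. The octamers bound by capicua, the repressor that forms a complex with ataxin-1, are TGAATGAA (in 1.30% of all promoters), TGAATGGA (1.21%), TCAATGAA (0.749%) and TCAATGGA (0.670%), and 0 of the 14 promoter entries of the 8 genes held one. TGACGTCA was in 1 of the 14, that of Syn1, where it begins at position −159 from the start, and in 1.79% of all promoters. The EGR site GCGTGGGCG was in 0 of 14 and 0.612% of all, and the E-box CANNTG in 9 of 14 and 72.3% of all. These letters are a description of the windows and not of binding.

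Genes annotated inside or across the 10 genes could share reads with them, since whether counting used strand is not given in the sources used here. Timp3 lies within Syn3 and overlaps 14.1% of its exon bases, and the unlisted Gm14703 overlaps 16.8% of the exon bases of Syp and Gm26859 5.13% of those of Syt7. For Sv2b (0.561%, 1500012K07Rik), Syn1 (0.273%, Araf) and Syn2 (1.28%, Timp4) the overlap was small, and no exon of another gene overlapped those of Sv2a, Sv2c, Syt1 or Syt2. Araf, which encodes a kinase, was higher in SCA1 KI cortex (LFC 0.26, adjusted p = 0.0381, limma) and Timp4, a metalloproteinase inhibitor, was lower (LFC −0.34, adjusted p = 0.0154, limma). Timp1, also inside Syn1, held 5.94 to 18.5 normalized counts and shares no exon base with it. Ppp1r12b crosses the end of Syt2 with 0 shared exon bases.

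Across the 12 libraries, after subtracting the mean of each region from log2 values, some of the 10 genes varied together. Pearson's r was 0.93 between Syn1 and Syt1, 0.92 between Sv2b and Syt1 and 0.86 between Syt1 and Syt2, and it was −0.53 between Sv2a and Syt1. These values are descriptions over 12 libraries that include the genotype difference. The genes most like Sv2b by this measure were Rims2 (r = 0.98), an organizer of the active zone of release, and Ldlrad4 (r = 0.97), an inhibitor of TGF-beta signaling. Closest to Syt1 were Car10 (0.99) and Lrrc4 (0.97), to Syt2 R3hdm1 (0.99) and Lzts3 (0.99), and to Syt7 Kcnma1 (0.99), a calcium-activated potassium channel, and Rhobtb2 (0.98).

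The other genes of the vesicle cycle were described in 3 lists, each read against the 15.6% of all tested genes that passed in the cortex (4.82% higher, 10.8% lower) and the 5.36% in the cerebellum (0.917% higher, 4.44% lower). Of 13 tested other synaptotagmins, 2 were lower and 0 higher in SCA1 KI cortex, a share near that of all genes, with a median LFC of 0.029 (1 was higher in edgeR and in DESeq2). These were Syt12, at 1747 ± 271 in WT and 1096 ± 106 in SCA1 KI (SD, n = 3; LFC −0.66, adjusted p = 0.00210, limma), and Syt13, at 12703 ± 1375 and 9552 ± 1098 (SD, n = 3; LFC −0.41, adjusted p = 0.00742, limma), both of which encode synaptotagmins not thought to bind calcium. In the cerebellum 0 of the 13 passed in limma or edgeR and 1 was lower in DESeq2, with 3 at an unadjusted p under 0.05 in limma.

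Of 33 tested other proteins of the vesicle membrane or bound to it, 1 was higher and 6 were lower in SCA1 KI cortex (median LFC −0.066). Rph3a, which encodes the Rab3 effector rabphilin, fell from 24659 ± 539 to 12676 ± 1396 (SD, n = 3; LFC −0.97, adjusted p = 7.67e-06, limma). Vamp1, a synaptobrevin, fell from 7800 ± 193 to 4283 ± 390 (SD, n = 3; LFC −0.87, adjusted p = 9.05e-04, limma). Slc6a17, a vesicular amino acid transporter, was lower (LFC −0.34, adjusted p = 0.00742) and Syngr3, a synaptogyrin, was higher (LFC 0.30, adjusted p = 0.00648), both in limma.

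In SCA1 KI cerebellum 1 of these 33 genes was higher and 5 were lower (median LFC −0.052). Synpr, which encodes the synaptophysin relative synaptoporin, rose from 2894 ± 116 to 5787 ± 210 (SD, n = 3; LFC 1.00, adjusted p = 0.00245, limma). In the cortex Synpr passed in the opposite direction (LFC −0.52, adjusted p = 0.0380, limma), and the difference between the regions was −1.52 (adjusted p = 0.00145, limma). Vamp1 was lower in the cerebellum as well (LFC −0.66, adjusted p = 0.0136, limma). Doc2a, a calcium sensor of spontaneous and asynchronous release, was at 228 ± 118 in WT and 24.7 ± 0.638 in SCA1 KI (SD, n = 3; LFC −3.03, adjusted p = 2.91e-05, limma), and Slc17a6, the vesicular glutamate transporter VGLUT2, was at 4531 ± 2034 and 1136 ± 165 (SD, n = 3; LFC −1.91, adjusted p = 9.43e-04, limma). WT spread was wide for both, and Slc17a6 is also on the list of thalamic markers that were lower.

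Of 28 genes of vesicle retrieval and endocytosis, 1 was higher and 1 lower in SCA1 KI cortex, a smaller share than that of all genes (median LFC −0.050). Pacsin1, an adaptor of dynamin, fell from 22248 ± 1159 to 15820 ± 836 (SD, n = 3; LFC −0.49, adjusted p = 1.44e-04, limma), and Hspa8, the chaperone that uncoats clathrin vesicles, was higher (LFC 0.36, adjusted p = 0.0107, limma). In the cerebellum 0 were higher and 1 was lower, Sh3gl3, an endophilin (LFC −0.74, adjusted p = 0.00391, limma). Each of the 3 lists had most of its genes on neither side of the thresholds, as the plot of LFCs by list shows.

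**Figure D4:**
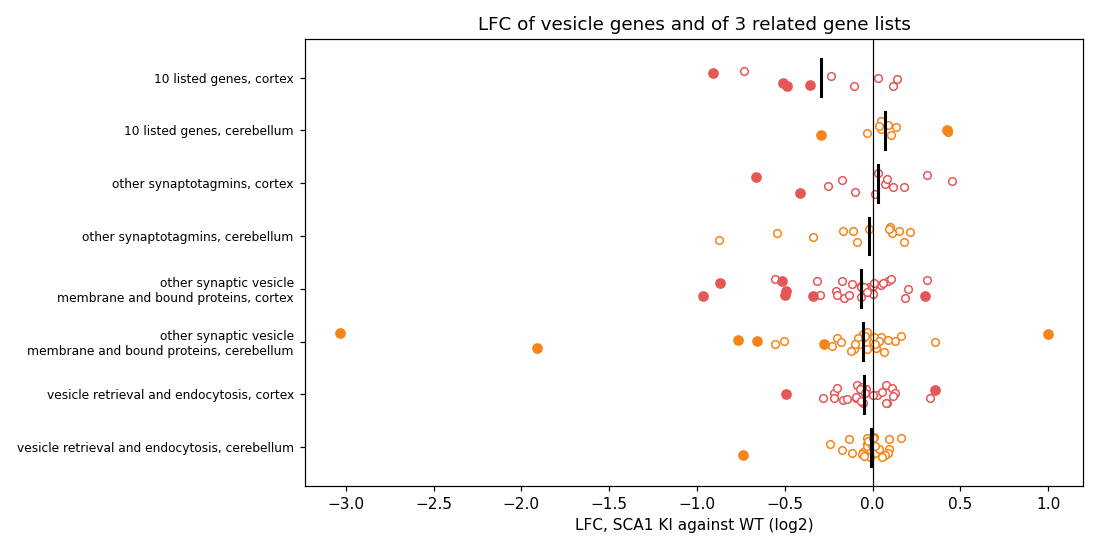
LFC of SCA1 KI against WT on the log2 scale (horizontal axis) for the 10 genes and for 3 lists of related genes in cortex and cerebellum, with filled points for genes that passed and black bars at the median. The median of the 10 genes in the cortex is at −0.30, and the medians of the 3 lists are at 0.029, −0.066 and −0.050 there.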

How the data were processed

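Poly-adenylated RNA of whole cortex and cerebellum was analysed in 12 libraries, 3 in each group of region and genotype. Per the submitters' processing notes and the methods of the study, alignment by the authors used STAR and mm10, counting used featureCounts, and DESeq2 gave the normalization. The deposited signal is the normalized count, reads divided by the size factor of the library, and multiplying back gave whole reads for 100% of the values (tolerance 0.01), which were recovered for count tests. Depth was 29520855 to 51311309 reads on genes per library, and intervals over libraries include counting error. Columns name region and genotype, with a letter or number of their own, and were grouped by these.

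log2(normalized count + 1) was modeled by limma 3.58.1 (R 4.3.3, moderated variances with a mean trend, 4 group means, all 12 libraries) for 15369 genes with a mean of at least 10. Adjusted p are Benjamini-Hochberg values over all of them, and a fold change on this scale understates that of genes with low counts. Thresholds were 0.05 for the adjusted p and 0.25 for the absolute LFC, the latter not used for the difference between regions. GENCODE vM21 on GRCm38 gave exon lengths, positions and overlaps (15009 of 15758 symbols matched), and RefSeq the promoters. The scripts were tested on simulated data.

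The 10 genes and all lists were chosen with earlier results of these data known. Other genes named were Atxn1, genes overlapping a listed gene, the 2 genes with the highest r for each listed gene that passed, and per list, region and direction up to 3 genes with the smallest p whose libraries did not overlap. The marker named singly (Pvalb) is from the marker lists and was picked after its value was seen. Alternatives were a pseudocount of 0.5 or 5, a minimum mean of 100 or none, TMM scaling, centring on the median, edgeR 4.0.16 (quasi-likelihood test), DESeq2 1.42.0, correction of each library for length and GC content of transcripts, thinned reads, no limit on the LFC, each region alone, and leaving out each library. Protein and histology were not analysed here.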

Additional observations from a re-analysis of the deposited data

Results flagged for a closer look

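The effect of the SCA1 genotype differed between cortex and cerebellum for 4 of the 10 genes by the interaction term of limma, the LFC in the cortex minus that in the cerebellum. The difference was −0.94 for Sv2b (adjusted p = 4.29e-04, limma), which was lower in all 3 SCA1 KI cortex libraries and higher in all 3 SCA1 KI cerebellum libraries than in WT. It was −0.95 for Syt2 (adjusted p = 9.22e-04, limma) and −0.49 for Syt1 (adjusted p = 0.00561, limma), each lower in 3 of 3 SCA1 KI cortex libraries. It was −0.28 for Syn1 (adjusted p = 0.0436, limma), which was lower in 3 of 3 SCA1 KI cortex libraries. Over all tested genes 8.15% differed between the regions and 4.89% in this direction. Region and study cannot be told apart in these differences, since the cerebellum libraries had been made for an earlier study.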

How the results depend on the processing

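The number of the 10 genes that passed was 4 to 5 in the cortex, 3 to 4 for the difference between regions and 7 to 8 between the regions of WT mice under the alternatives that were run, all within 1.5 times the reported count. In the cerebellum it was 1 with centring on the median (Sv2b, Syt7 having an adjusted p of 0.0527 in limma), 3 with the region fitted alone (Sv2c added) and 1 to 2 when 1 library was left out. Syt7 was lost there without SCA1 KI library 1, 3 or 5, WT library 4 or 6, or WT cortex library C. Sv2b passed in both regions in every alternative (LFC −0.57 to −0.45 in the cortex and 0.36 to 0.48 in the cerebellum), as did Syt1, Syt2 and Syt7 in the cortex. The cause of the changes was not tested.

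Syn1 passed in the cortex with no limit on the LFC and without library A (LFC −0.27) or C (−0.25). Over the 12 alternatives other than leaving out a library, the cortical LFC of Syn1 was −0.24 to −0.17. Its adjusted p over these fits of limma, edgeR and DESeq2 reached 0.0820. Its difference between regions was lost with TMM scaling (adjusted p = 0.0616, limma), with edgeR (adjusted p = 0.0668) and in 11 of 12 fits without 1 library. The LFC changed sign, without passing, for Syp in the cortex with the trend on length and GC content removed (−0.050), for Syn3 in the cerebellum without WT library 4 (−0.043, range −0.043 to 0.17 when 1 library was left out) and for the difference of Syn3 between regions without WT library 2 (−0.029, range −0.029 to 0.22). Over all genes, 824 passed in the cerebellum and 399 did without SCA1 KI library 1, 454 without library 3 and 512 without library 5, and 1253 differed between the regions, 783 without SCA1 KI cerebellum library 1 and 833 without library 3. No paired analysis was possible because nothing in the labels or columns ties a cortex library to a cerebellum library of the same mouse. With 3 libraries a group, the interval of Sv2c in the cortex was wide (LFC −1.53 to 0.065, limma).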
